A study of Mus musculus with 6 samples.

Results

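The broadest H3K4me3 domains of water-treated neural stem and progenitor cells are described here, and what their counterparts were after crotonate. They are the 500 longest of the 13221 H3K4me3 peaks called after water, chosen by their length in that list, with ties broken by chromosome and then start. That length, and every other value of the water H3K4me3 list, is therefore a description. The cells came from forebrains of mice at E13.5 and were cultured to passage 2 to 3, with 20 ng/ml EGF, 20 ng/ml FGF, 0.5× B27 and 0.5× N2 in every group. The groups were 24 h with 10 mM crotonate, a short-chain fatty acid from which cells can form crotonyl-CoA, and 24 h with water. The assay was CUT&Tag, where a transposase is tethered to a histone mark by an antibody and tags the DNA there. There was 1 library each for H3K4me3 and H3K27me3 in each group, so no replicate check of a difference between the groups was possible and p-values are not given. The lists used held 16007 H3K4me3 and 15879 H3K27me3 peaks after crotonate, and 13221 H3K4me3 and 7643 H3K27me3 peaks after water. The 2 IgG samples were not analysed here.

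H3K4me3, trimethylation of lysine 4 of histone H3, is placed by the SET1/COMPASS and MLL enzymes around the starts of active genes, mostly as a short peak over the first nucleosomes. At a minority of genes it runs far into the gene body, and such broad domains are known from many cell types to lie at genes of cell identity, at tumour suppressor genes and at genes with highly consistent transcription. H3K27me3, the mark of Polycomb repressive complex 2, can lie on the same promoters at developmental genes, a state called bivalent.

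Peak calling depends on depth, and fragment totals are not given. From the deposited pileup values, the H3K4me3 library after crotonate was an estimated 1.16 times as deep as after water, its background 1.80 times, and the H3K27me3 library 0.811 times. A longer H3K4me3 peak after crotonate therefore cannot be told apart from an effect of depth, which holds for every width given below. Markers of the labelled cells carried the mark: 21 of 24 radial glia and stem cell genes had an H3K4me3 peak at an end after water, against 4 of 28 genes of microglia, vessels, fibroblasts and blood, beside 11831 of all 21887 protein-coding genes.

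The domains measured 3394 to 23757 bp after water, with a median of 4005.5 bp, and the other 12721 peaks reached 3392 bp with a median of 1467 bp. In all they covered 2.2 Mb, 10.3% of the 21.4 Mb under H3K4me3 after water. The limit fell in a dense run of lengths. The 5 domains just inside it had 3394 to 3399 bp and lay at Adrb1, at the lncRNA gene E130102H24Rik, at Nr2f6 and Ushbp1, at Tead1 and at Adcyap1r1. The 5 peaks just outside had 3389 to 3392 bp and lay at Socs7, Scrt1, Prkce, Ppm1l, and Bmp1 with Sftpc. Peaks of at least 5 kb numbered 232 after crotonate and 82 after water, and peaks of at least 10 kb numbered 12 after crotonate and 7 after water.

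The top of the list belonged to a microRNA. miR-9 is an abundant microRNA of the developing brain that restrains progenitor genes, among them Nr2e1, and it is made from 3 genes, Mir9-1, Mir9-2 and Mir9-3. All 3 lay inside domains, at ranks 2, 266 and 6. The mature sequences (RefSeq, GRCm38.p6) were identical from the 3 genes, and are shown because 3 of the 6 longest domains lie at genes of the same 2 products. Capitals mark the seed, bases 2 to 8:
miR-9-5p: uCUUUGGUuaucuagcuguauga
miR-9-3p: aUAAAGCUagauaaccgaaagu

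The hairpins, on 3 chromosomes, differ outside these arms. Capitals mark the mature arms:
Mir9-1: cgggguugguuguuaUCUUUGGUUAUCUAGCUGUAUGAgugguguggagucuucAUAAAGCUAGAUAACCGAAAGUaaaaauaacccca
Mir9-2: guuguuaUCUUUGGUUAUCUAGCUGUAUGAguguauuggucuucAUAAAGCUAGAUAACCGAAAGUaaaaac
Mir9-3: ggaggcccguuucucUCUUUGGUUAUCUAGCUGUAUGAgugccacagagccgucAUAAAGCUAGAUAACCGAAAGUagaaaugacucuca

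The Mir9-1 hairpin lies at chr3:88215598-88215686 on the plus strand, inside the lncRNA gene Gm3764. It sat in a peak of 23791 bp after crotonate (chr3:88199490-88223280) and of 16958 bp after water (chr3:88204867-88221824). The crotonate peak ran from 16108 bp on the 5′ side of the hairpin to 7594 bp on its 3′ side, and the water domain from 10731 to 6138 bp. Another domain of 4873 bp, rank 92, stopped 359 bp short of it in water and was part of the same peak after crotonate. The hairpin of Mir3093, a microRNA with no shared seed, lay in the same domain.

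The Mir9-2 hairpin lies at chr13:83738814-83738885 on the plus strand, inside the lncRNA gene C130071C03Rik. The longest water peak of all, 23757 bp (chr13:83712925-83736681), stopped 2132 bp before it, and the hairpin sat in the next domain, of 3953 bp (chr13:83737059-83741011). After crotonate both, with a further water peak of 426 bp, lay in a single peak of 29266 bp (chr13:83712772-83742037), the longest of that list. The outer edges lay 153 and 52 bp further out after crotonate, and the gaps that it covered measured 377 and 548 bp in the water list.

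The Mir9-3 hairpin lies at chr7:79505264-79505353 on the plus strand, inside its host gene Mir9-3hg. Its peak had 16073 bp after crotonate (chr7:79496093-79512165) and 11393 bp after water (chr7:79498968-79510360), and reached 6812 bp past the hairpin after crotonate and 5007 bp after water. All 3 loci thus ranked among the first 3 of the crotonate list, at 2, 1 and 3. Around Mir9-1 and Mir9-3 the crotonate list also held short separate peaks that the water list did not, as the map of the 3 loci shows.

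**Figure D1:**
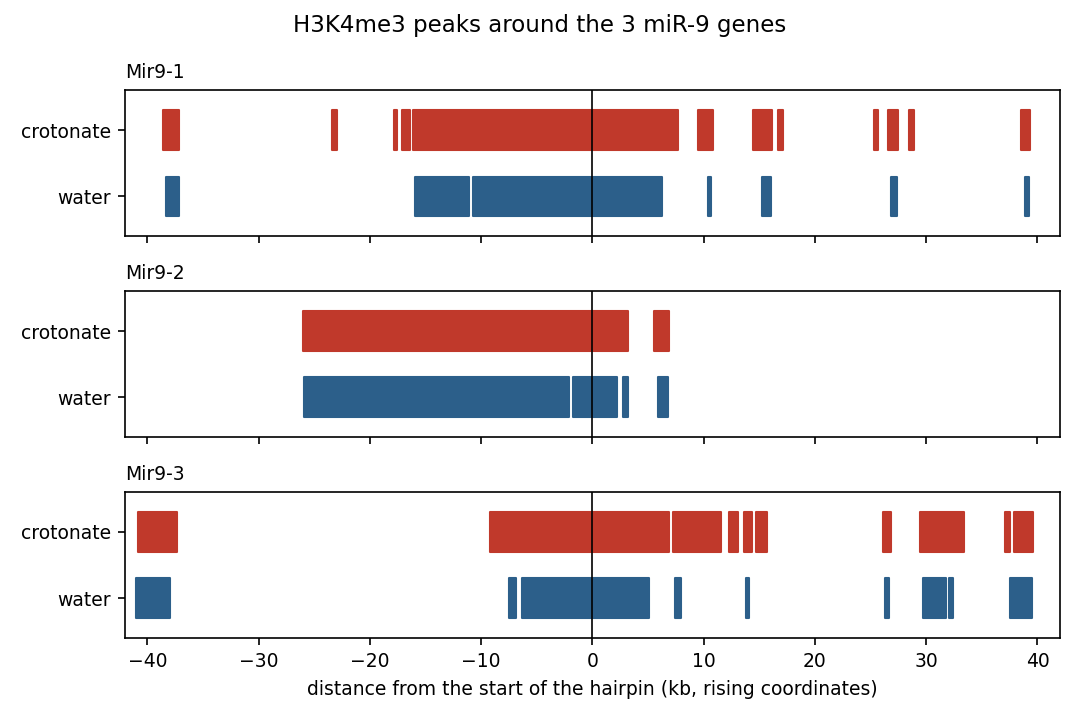
H3K4me3 peaks (bars) within about 40 kb of the start of each miR-9 hairpin, at 0 (kb, in rising coordinates), after crotonate (upper) and water (lower), 1 library each. Single peaks of 23791, 29266 and 16073 bp surround the hairpins after crotonate, and the water list has gaps inside the same stretches.

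In all 11 domains, 2.2%, held a microRNA hairpin, against a background of 0.666% of all water peaks. Long peaks hold more of anything: these 11 were 12.5% (6.41 to 21.3, exact Clopper-Pearson 95% interval) of the 88 water peaks with a hairpin, beside 10.3% of the covered length. Such intervals, here and below, cover counting error only. Mir125b-1, whose microRNA is also abundant in neural cells, lay in a domain of 5078 bp after crotonate and 4955 bp after water, rank 85, inside Mir100hg and at an end of Gm51670. The miR-9 domains also held the antisense hairpins Gm25641, in the Mir9-1 domain, and Gm51268, in the Mir9-2 domain. Others lay in domains at protein-coding genes, such as Hdac5 (Mir8101), Srf (Mir6976) and Slc25a29 (Mir345).

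The promoters of the domains were rich in CpG. Stretches of 250 bases upstream of the start site (RefSeq, GRCm38.p6, plus strand, 5′ to 3′) are shown for 5 genes of the neural progenitor, with every CpG in capitals, since CpG-rich DNA is what the enzymes of H3K4 methylation are recruited to. They lie at chr1:42695518-42695767, chr19:59458440-59458689, chr16:91225300-91225549, chr3:34649745-34649994 and chr3:87970843-87971092:
Pou3f3: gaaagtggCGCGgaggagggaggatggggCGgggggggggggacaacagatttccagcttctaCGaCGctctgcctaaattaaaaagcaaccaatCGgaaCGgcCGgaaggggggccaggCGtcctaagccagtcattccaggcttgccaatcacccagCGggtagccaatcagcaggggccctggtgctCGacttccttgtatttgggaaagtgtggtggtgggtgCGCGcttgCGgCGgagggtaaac
Emx2: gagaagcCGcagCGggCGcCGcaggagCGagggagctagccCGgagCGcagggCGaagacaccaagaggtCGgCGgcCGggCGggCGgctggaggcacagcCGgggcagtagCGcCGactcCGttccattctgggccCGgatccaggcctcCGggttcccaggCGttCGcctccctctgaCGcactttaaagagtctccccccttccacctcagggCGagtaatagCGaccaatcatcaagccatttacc
Olig2: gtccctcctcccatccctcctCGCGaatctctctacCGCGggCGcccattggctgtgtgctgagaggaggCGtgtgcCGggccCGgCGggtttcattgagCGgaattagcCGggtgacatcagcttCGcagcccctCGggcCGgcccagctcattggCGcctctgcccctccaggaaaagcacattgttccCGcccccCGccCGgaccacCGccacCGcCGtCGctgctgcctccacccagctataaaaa
Sox2: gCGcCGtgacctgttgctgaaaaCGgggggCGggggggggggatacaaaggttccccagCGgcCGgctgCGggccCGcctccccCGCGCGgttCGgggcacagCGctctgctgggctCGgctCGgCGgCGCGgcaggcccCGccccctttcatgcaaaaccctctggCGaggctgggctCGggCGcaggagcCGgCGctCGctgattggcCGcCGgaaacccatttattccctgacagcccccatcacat
Nes: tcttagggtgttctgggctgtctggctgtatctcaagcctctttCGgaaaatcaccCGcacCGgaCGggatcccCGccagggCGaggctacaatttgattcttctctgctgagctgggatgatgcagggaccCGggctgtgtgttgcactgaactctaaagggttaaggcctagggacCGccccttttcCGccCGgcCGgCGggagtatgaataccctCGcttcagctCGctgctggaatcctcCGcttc

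These stretches held 15 CpG (Pou3f3), 24 (Emx2), 22 (Olig2), 27 (Sox2) and 15 (Nes). A TATA box (TATAAA, either strand) was found in that of Olig2 only among the 5, and the GC box GGGCGG, searched on both strands, occurred at least once in each. Over the promoter table (300 bases, from 250 before to 50 after the start), 520 promoters of 412 protein-coding genes lay in domains. Their median GC content was 65.3% and their ratio of observed to expected CpG 0.821. Promoters in the other water peaks, 10085 of 8682 genes, had medians of 62.7% and 0.809, and those without a water peak 49.3% and 0.233. In the peaks of ranks 501 to 2000 the medians were 66.0% and 0.879, so richness in CpG was not particular to the domains.

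Of 6 short motifs searched, 1 differed most between peak classes. The letters CCGGAAG, the core bound by ETS factors, occurred on either strand in 9.81% of promoters in domains, in 20.4% of those in other peaks and in 11.6% of all. The share was 18.2% in the next 1500 peaks by length, whose GC content, 66.0%, was close to that of the domains. The GC box occurred in 75.8% of promoters in domains and 70.3% in other peaks (46.2% of all), and TATAAA in 6.73% in domains and 5.44% in other peaks (12.6% of all). CCAAT occurred in 38.8% in domains and 38.6% in other peaks (38.2% of all). The E box CACGTG occurred in 9.81% in domains and 10.7% in other peaks (7.84% of all), and TGACGTCA, the cAMP response element, in 2.31% in domains and 3.67% in other peaks (2.23% of all). A match is a run of letters and not a bound site.

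Among the 30 longest domains were many at regulators of the embryonic forebrain. At rank 3 was Nfib, a nuclear factor I gene needed for glial and cortical development, with 14769 bp after crotonate and 14466 bp after water (chr4:82499332-82513797). At rank 4, Pou3f3, a POU factor of upper cortical layers and their progenitors, had 13804 bp after crotonate and 13012 bp after water (chr1:42683979-42696990). These peaks were 303 bp (Nfib) and 792 bp (Pou3f3) longer after crotonate.

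Other forebrain regulators followed. Pou3f2, the partner of Pou3f3, had 7829 bp after crotonate and 7300 bp after water. Emx2, which sets the caudal and medial cortex, had 8047 bp after crotonate, in a peak that held 2 water peaks, and 7010 bp after water. Nr2e1 (Tlx), which keeps neural stem cells dividing, had 6997 bp after crotonate and 6376 bp after water, and Sox11, a gene of immature neurons, 6829 bp after crotonate and 6429 bp after water. Npas3, Sall1, Sall3, Zeb1 and Meis2, transcription factor genes of the developing brain, and Tgif1, whose human counterpart is a holoprosencephaly gene, were in the same 30. Not all of the 30 were neural regulators: Irs2, an adaptor of insulin receptors, had 9236 bp after crotonate and 8764 bp after water. Domains at Tnrc18, Zfp516, Skida1, Brd2, Sin3a, Erf, and Fam72a with Srgap2 were also among the 30.

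Of these 30, 29 were longer after crotonate, and for 11 the crotonate peak held 2 or more water peaks. Malat1, a nuclear lncRNA gene of nearly all cells, reached 10361 bp after crotonate and 7093 bp after water in this way, and Sall3 11550 bp after crotonate and 7347 bp after water. The exception was Sin3a, which encodes a scaffold of histone deacetylase complexes. Its domain of 6376 bp after water lay under 2 separate peaks after crotonate, of 3487 bp and 2816 bp. They ran from 57071206 to 57074692 and from 57074955 to 57077770 on chromosome 9, with a gap of 262 bp between them. Their outer edges lay beyond those of the domain (57071388 to 57077763), so it was shorter by its longest piece only.

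**Figure D2:**
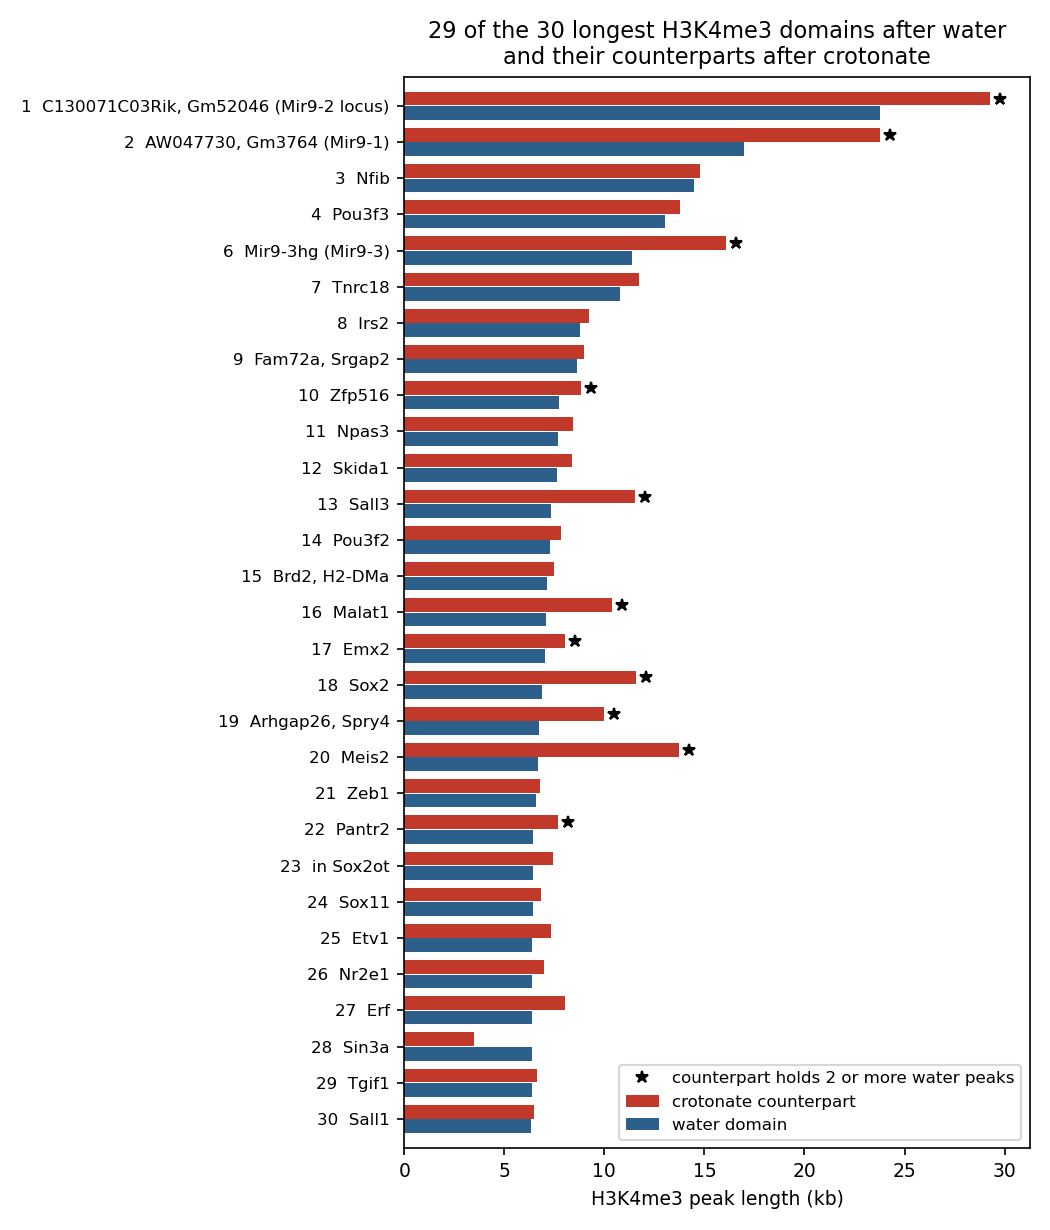
Length (kb) of 29 of the 30 longest water domains (lower bar, blue) and of their longest crotonate counterpart (upper bar, red), with rank and gene, 1 library per bar; stars mark counterparts that hold 2 or more water peaks. The largest differences stand beside stars, and Sin3a, with 3487 bp after crotonate and 6376 bp after water, is the only one shown that is shorter.

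Several progenitor genes sat in runs of domains. Sox2, which maintains neural progenitors, had 2 domains, of 6894 bp (rank 18, chr3:34652338-34659231) and of 3984 bp (rank 254, chr3:34647977-34651960), which holds the start site of the sequence shown above. One more, of 6437 bp (rank 23, chr3:34659905-34666341), followed inside the lncRNA gene Sox2ot. After crotonate the first 2 were a single peak of 11566 bp (chr3:34647955-34659520), and the one in Sox2ot had 7452 bp. Pou3f3 began another run of 3 domains within 31.0 kb that included the lncRNA genes Pantr1 and Pantr2. At Meis2 domains of 6694 and 5713 bp after water lay in a single peak of 13736 bp after crotonate. In all 26 domains stood in 12 groups with gaps of at most 20 kb, and in 3 of the groups (Mir9-1, Mir9-2 and Meis2) the members shared a single crotonate peak.

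Transcription factors of neural progenitors were the list of known roles with most genes at domains. An end within 2 kb of a domain was found for 28 of the 50 genes of that list, 62.2% of the 45 with any water H3K4me3 peak, beside a background of 4.56% (540 of 11831 protein-coding genes with such a peak, and 2.47% of all 21887). These counts have no test, since the lists were drawn up with earlier results of these data known. Beyond the genes above they included Olig2, a bHLH factor of ventral and oligodendrocyte progenitors, with 9860 bp after crotonate and 6239 bp after water, and Otx1, with 9238 bp after crotonate and 5676 bp after water. Sox1, Sox3 and Sox21, Zic1 to Zic5, Hes5, Rfx4, Nr2f1, Hmga2, Id3, Sox9 and Tead1 were among the others. Of the 28, 27 were longer after crotonate, with medians of 6725.5 bp after crotonate and 5583 bp after water. At Olig2 and Otx1, among others, the crotonate peak held 2 or more water peaks, so these lengths and medians do not measure a widening. Domains lay inside 2 further genes of the list, Lhx2 and Nfia, away from their annotated ends.

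By family, Sox genes led with 9 of 19 (64.3% of the 14 with a peak), followed by Krüppel-like, Sp, Egr and Zic genes with 16 of 38 (53.3% of 30). Homeobox genes had 9 of 90 (23.1% of 39), bHLH genes 8 of 47 (30.8% of 26) and Ets, E2f and AP-1 genes 8 of 46 (19.5% of 41). Forkhead genes had 2 of 44 (8.70% of 23). Among 438 zinc finger genes named Zfp or Zbtb, 359 had a water peak and 13 a domain, 3.62%, under the background. Hox genes, silent in the forebrain, had no H3K4me3 peak at an end in 39, and olfactory receptor genes none in 1110. The lists overlap, and 1 domain can count for neighbours: Zic1 and Zic4 share 1.

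Genes of the growth factor response were also found. Of 32 genes of FGF and EGF receptor signalling, 11 had a domain, 34.4%. They held a receptor of each factor and feedback inhibitors that the signal induces. Egfr, the EGF receptor, had 4241 bp after crotonate and 4037 bp after water, and Fgfr1 had 3607 bp after crotonate and 3422 bp after water. Inhibitors ranged more widely: Spry4 had 9994 bp after crotonate and 6719 bp after water, Spry2 7163 bp after crotonate and 5419 bp after water, Dusp6, a phosphatase of ERK, 7813 bp after crotonate and 5788 bp after water, and Lrig1, which lowers EGFR, 8481 bp after crotonate and 5774 bp after water. Dusp4, with 4976 bp after crotonate and 4216 bp after water, and Spry1, with 4318 bp after crotonate and 4025 bp after water, were close to Egfr. Ccnd1, the cyclin D1 gene that this signal switches on, had 10132 bp after crotonate and 5472 bp after water. Its crotonate peak held 2 water peaks, as did those at Spry4, Spry2 and Dusp6, so these lengths do not measure a widening. Etv1 and Spred1 completed the 11.

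Immediate early genes, transcribed within minutes of a stimulus, had domains at 12 of 30, 40.0%. Ier2 had 7424 bp after crotonate and 6185 bp after water, Myc 6426 bp after crotonate and 6167 bp after water, Jun 5817 bp after crotonate and 5042 bp after water, and Egr1 6624 bp after crotonate and 4536 bp after water. At Nr4a3, an orphan nuclear receptor gene, the domain of 3407 bp, rank 491, lay in a crotonate peak of 6432 bp. Fos, Fosb, Egr2, Klf6, Klf10, Zfp36l1 and Zfp36l2 were the rest. All 12 were longer after crotonate, with medians of 5782 bp after crotonate and 4035.5 bp after water. At Egr1, Fos, Zfp36l1 and Nr4a3 the crotonate peak held 2 or more water peaks, so these lengths do not measure a widening.

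Notch genes had 7 domains among 30 (28.0% of the 25 with a water peak, against the background of 4.56%). They were the ligands Dll1 and Jag1, the receptor Notch1, the modifier Lfng, the coactivator Maml2, and the targets Hes5 and Hey1. Dll1 had 6624 bp after crotonate and 4963 bp after water, Hes5 5502 bp after crotonate and 4708 bp after water, and Notch1 4555 bp after crotonate and 3682 bp after water. An eighth domain, at Rbpj, the DNA-binding factor of the pathway, lay inside the gene. Wnt, BMP and Hedgehog signalling had 2 of 41 at an end, Bmpr1a and Fzd1, 5.41% of the 37 with a peak, which is near the background. Axin2 and Ptch1, targets of Wnt and Hedgehog, had domains inside the gene. That in Axin2 had 4547 bp after crotonate and 4052 bp after water. The domain in Ptch1 had 4261 bp after water, and its crotonate peak of 7737 bp held 2 water peaks.

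Among radial glia and stem cell markers 6 of 24 had a domain (28.6% of the 21 with a water peak, against the background of 4.56%). They were Sox2, Nes, Cdh2, Igf2bp2, Msi2 and Ptprz1. Nes, the gene of the intermediate filament protein nestin, had 5004 bp after crotonate and 4697 bp after water (chr3:87970279-87974975). Pax6, a regulator of cortical progenitors, was outside the limit at rank 632, with a peak inside the gene of 4480 bp after crotonate and 3243 bp after water. Genes of later fates were present too. Neuronal genes had 5 of 33 (Bcl11a, Cux1, Pou3f2, Sox4 and Sox11), ventral forebrain genes 2 of 24 (Gsx1 and Sp8), and glial genes 3 of 24 (Olig2, Sox8 and Id3), of which Pou3f2, Olig2 and Id3 are also on the progenitor list.

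Other lists covered growth control and chromatin. Tumour suppressor genes had 9 of 34, among them Trp53 with 6003 bp after crotonate and 4823 bp after water. Cell cycle genes had 9 of 35, with Ccnd1, Ccnd2, Cdkn1b, Cdkn2c, Myc and Mycn, and chromatin regulators 12 of 50. Those held 3 H3K4 methyltransferase genes of the MLL family, Kmt2a, Kmt2c and Kmt2d, and Kmt2e, a related SET domain gene. Kmt2e, whose domain had 6420 bp after crotonate and 4230 bp after water, differed most, and Kmt2a, Kmt2c and Kmt2d by 140 to 228 bp. RNA-binding and splicing genes had 10 of 40 (26.3% of 38), receptor tyrosine kinase and ephrin genes 8 of 36 (26.7% of 30).

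Genes that every cell transcribes strongly had domains at shares near or under the background of 4.56%. Of 85 ribosomal protein genes 82 had a water peak and 2 a domain, Rpl23a and Rpl7, 2.44%, and their longest peaks after water had a median of 2163 bp. Of 24 housekeeping genes 23 had a water peak and 1 a domain, 4.35%, which is near the background: Gapdh, with 4158 bp after crotonate and 3663 bp after water. Actb followed at rank 527, with 4421 bp after crotonate and 3364 bp after water. Transcription factors of other lineages (5 of 40 with any peak) and genes of microglia, vessels, fibroblasts and blood (4 of 28) had 0 domains, with too few marked genes to set against the background.

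**Figure D3:**
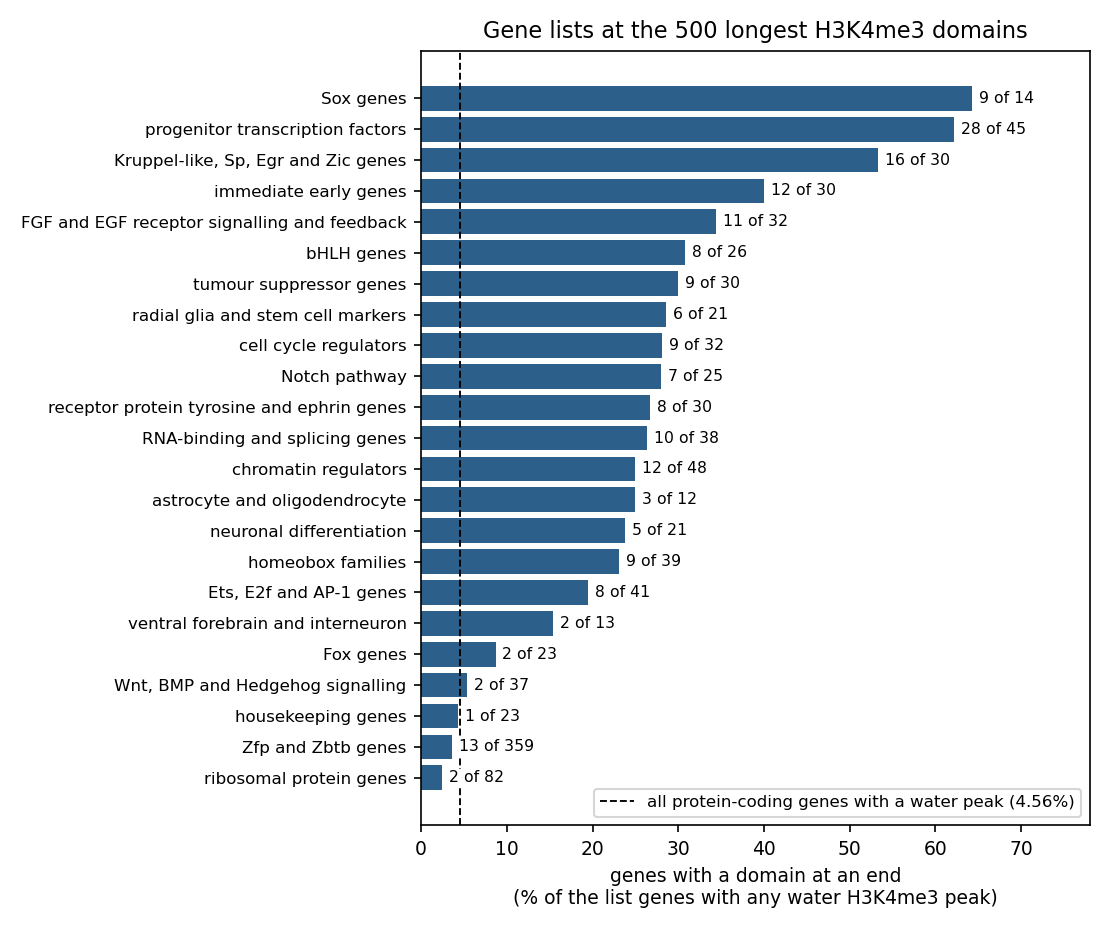
Share of the genes of each list with a water H3K4me3 peak that had an end within 2 kb of a domain (bars, %, with counts), for the lists with at least 10 such genes. Sox genes (9 of 14) and progenitor transcription factors (28 of 45) are at the top and ribosomal protein genes (2 of 82) at the bottom, under the 4.56% of all such genes (dashed line).

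Most domains lay at gene ends. An end of a protein-coding gene was within 2 kb of 440 domains, 88.0% (84.8 to 90.7), with a background of 81.6% of all water peaks. Such ends were as common at the next 1500 peaks by length, 88.9%, and rarer at the 4221 shortest, 67.5%. At 97 domains, 19.4% against 17.1%, ends of at least 2 protein-coding genes were found. Ends of lncRNA genes were near 163 domains, 32.6% (28.5 to 36.9), with a background of 17.1%. A RefSeq start site lay in 383, 76.6% (background 66.5%). Start sites on both strands lay in 121 domains, 24.2% (20.5 to 28.2), against 12.1% of all. Longer peaks reach more ends by length alone. Of the 60 domains with no coding end, 43 lay inside a protein-coding gene, 15 outside such genes at a lncRNA end, and 1 in Sox2ot. The last, of 5993 bp after crotonate and 5730 bp after water (rank 48, chr15:85668887-85674616), lay in no annotated protein-coding or lncRNA gene.

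Some domains held a gene whole. At 22 domains, 4.40% (2.78 to 6.59), a whole protein-coding gene lay inside, against a background of 0.741%, and long peaks hold more by length alone. The 23 genes were short, with a median span of 1730 bp. They included Olig2, whose 3128 bp lay within 6239 bp, and Ier2, Jun, Sox3, Hes5 and Id3. The 540 genes at domains had a median span of 23.7 kb, beside 23.9 kb for other genes with a water peak.

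Where start sites on 1 strand alone lay inside, in 262 domains, most of the mark lay downstream of the start. Starts of lncRNA genes count here, and at some domains they are the only ones, as at Nfib (Gm11266) and Kmt2e (5031425E22Rik). Downstream then follows the lncRNA gene and need not be the direction of the protein-coding gene. The median reach was 2934.5 bp downstream of the start and 1066.5 bp upstream, beside 1061 bp downstream and 419 bp upstream in 6926 other peaks. More bases lay downstream in 87.8% of the domains and in 87.9% of the other peaks. The summit, the highest point of the authors' pileup, lay downstream of the start in 72.5% of domains and 83.5% of others, at a median of 344.5 bp in domains and 174 bp in others.

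After crotonate every domain was found again. All 500 overlapped a crotonate peak by at least 1 bp (interval 99.3 to 100%), with a background of 99.3% for all water peaks. The counterpart was longer for 472, 94.4% (background 94.1%), shorter for 27, 5.40% (background 5.14%), and of the same 3727 bp for 1, at Elf2. These shares lie near those of all peaks. The median length was 4671 bp after crotonate and 4005.5 bp after water.

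The median ratio of crotonate to water length was 1.13 (quartiles 1.06 to 1.24) in the domains and 1.28 in the others. At least 1.5 times the water length was reached by 39 domains, 7.80% (5.61 to 10.5), against a background of 28.4%. In pairs of 1 domain with 1 crotonate peak, 428 in all, 85.6% against 91.5% of all peaks, the median gain was 432.5 bp, beside 371 bp in 11665 such pairs of other peaks. Since the length after water is the denominator of the ratio and chose the domains, the ratio is a description. Taken from the other side, the 500 longest crotonate peaks were a median of 1.30 times as long as their longest water peak.

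**Figure D4:**
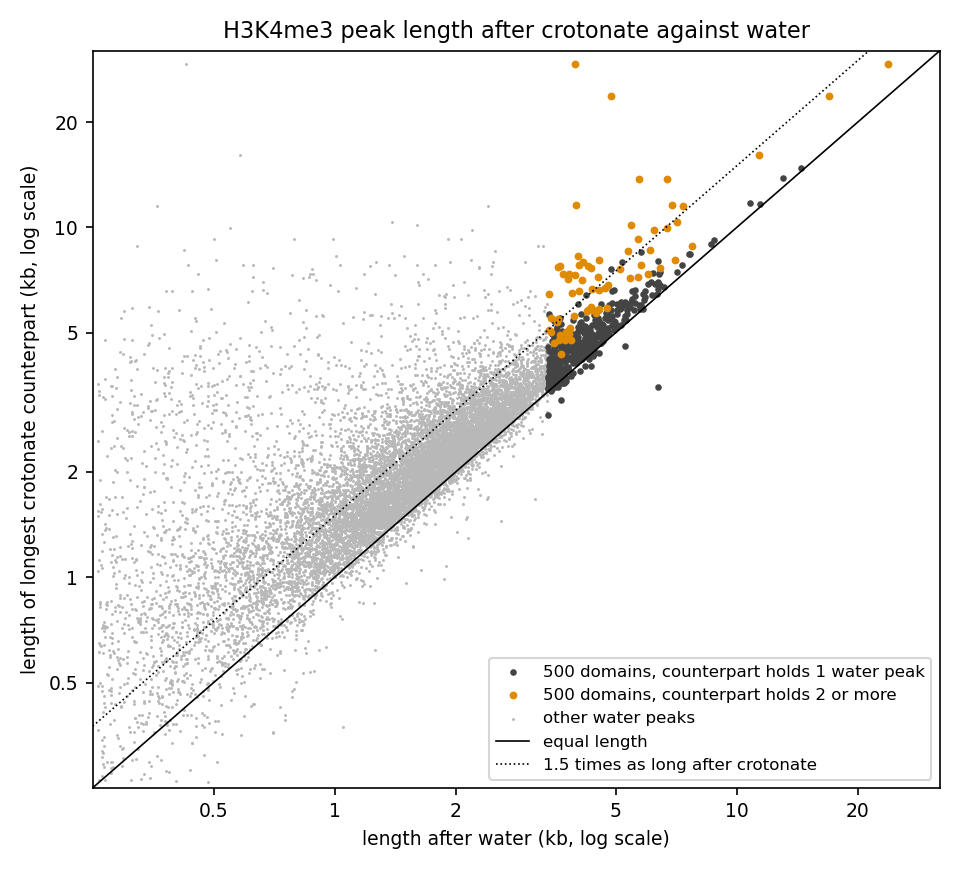
Length of the longest crotonate counterpart against length after water (kb, both axes log) for the water peaks with a counterpart, 1 library per axis; dark and orange points are the 500 domains and grey points the other peaks. Dark points keep close above the line of equal length, orange points, whose counterpart holds 2 or more water peaks, make up most of the domains above the 1.5-fold line (32 of 39), and grey points spread upward as length falls.

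Most of the largest ratios came from fusions. For 69 domains, 13.8% (10.9 to 17.1, background 7.65%), the crotonate peak held 2 or more water peaks, up to 3. The median ratio of these was 1.49, and that of the 1 to 1 pairs 1.1. In a fusion the whole joined peak is set against 1 water peak, so the ratio does not measure a widening of the domain. At Meis2 the 2 water domains with their gap spanned 12695 bp, beside 13736 bp after crotonate. All 9 domains at least 2 times as long after crotonate were of this kind: the smaller domains at Mir9-2, Mir9-1 and Sox2, both at Meis2, and those at Git1 with Ankrd13b (7725 bp after crotonate and 3599 bp after water), at Gm32298, at Zfp36l1 (7383 bp after crotonate and 3691 bp after water), and in Nfia (8264 bp after crotonate and 4039 bp after water). Next was Arid1a, a subunit gene of the BAF remodelling complex, with 7808 bp after crotonate and 4058 bp after water. Among 1 to 1 pairs the ratio reached 1.66, at Klf9, a Krüppel-like factor gene, with 5663 bp after crotonate and 3417 bp after water. Mtss2 with Vac14, Zmiz1, Ptbp1, Kmt2e, Myh9 and a domain in Adgrb3 also passed 1.5 without a fusion.

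Few domains had a shorter counterpart after crotonate. Only the longest crotonate peak is counted, so a split domain can score as shorter although its pieces together are not. A split into 2 crotonate peaks was seen for 3 domains, 0.60% (background 0.212%): Sin3a, Tead1, with 2911 and 271 bp after crotonate and 3396 bp after water, and Tshz1 with Zadh2, with 4584 and 1488 bp after crotonate and 5268 bp after water. Of the others, Shb, an adaptor gene, had 3208 bp after crotonate and 3657 bp after water, and Klhl28 with Togaram1 had 4007 bp after crotonate and 4348 bp after water. Then came Rgs16, the domain in Vgll4, and those at Git2, Usp38 and Ep300, whose counterparts differed from them by -194 to -115 bp.

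Where start sites on 1 strand alone lay inside, those of lncRNA genes included, the median edge lay further out after crotonate on both sides. In 228 such 1 to 1 domains the median extension after crotonate was 235 bp at the downstream edge and 159.5 bp at the upstream edge, and in 6640 other peaks 192 bp downstream and 134 bp upstream. The downstream edge moved further in 133 domains, 58.3%, and in 59.4% of the other peaks.

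Of the domains, 334, or 66.8% (62.5 to 70.9), had a counterpart among the 500 longest crotonate peaks, which were at least 4287 bp long. A further 132 had one among the next 500 and 34 one beyond rank 1000. The 10 lowest of these were Tead1, Shb, the domain in Prss23, Rnd3, Adcyap1r1, Adrb1, Sin3a, Wee1, Fnbp1l and Rap1a. Apart from Sin3a they had at most 3657 bp after water, so that they started near the limit.

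In turn, 170 of the 500 longest crotonate peaks overlapped no domain, and all had a water peak. Their best water peak was among the 500 that follow the domains for 60 and beyond rank 2000 for 64, and 93 of the 170 held 2 or more water peaks. The examples given next were picked with their values in view. The longest, of 9290 bp, covered Lonp1, Rpl36 and Safb, where the longest of 3 water peaks had 2061 bp. Cdkn1a, the p21 gene, had 5809 bp after crotonate and a single peak of 2407 bp after water. Other crotonate peaks held 2 water peaks each, so the length of the longer does not measure a widening. Such a peak had 8823 bp after crotonate at H3c8, H4c8 and H2ac10 in the histone gene cluster, where the longer water peak had 3299 bp. At Bdnf, a neurotrophin gene, the crotonate peak had 5615 bp and the longer water peak 1449 bp. At Vim, the intermediate filament vimentin of radial glia, the crotonate peak had 5579 bp and the longer water peak 3370 bp.

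The domains had little H3K27me3, a mark that did not choose them. Of the 500, 15 overlapped an H3K27me3 peak after crotonate, 3.0% (1.69 to 4.90, background 7.56%), and 20 after water, 4.0% (2.46 to 6.11, background 6.88%). By bases, H3K27me3 covered 1.39% of the domains' length after crotonate and 1.81% after water. The next 1500 peaks by length had 1.48% after crotonate and 1.68% after water, and the 4221 shortest 11.3% after crotonate and 10.3% after water. The share was thus about as low in other long peaks.

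**Figure D5:**
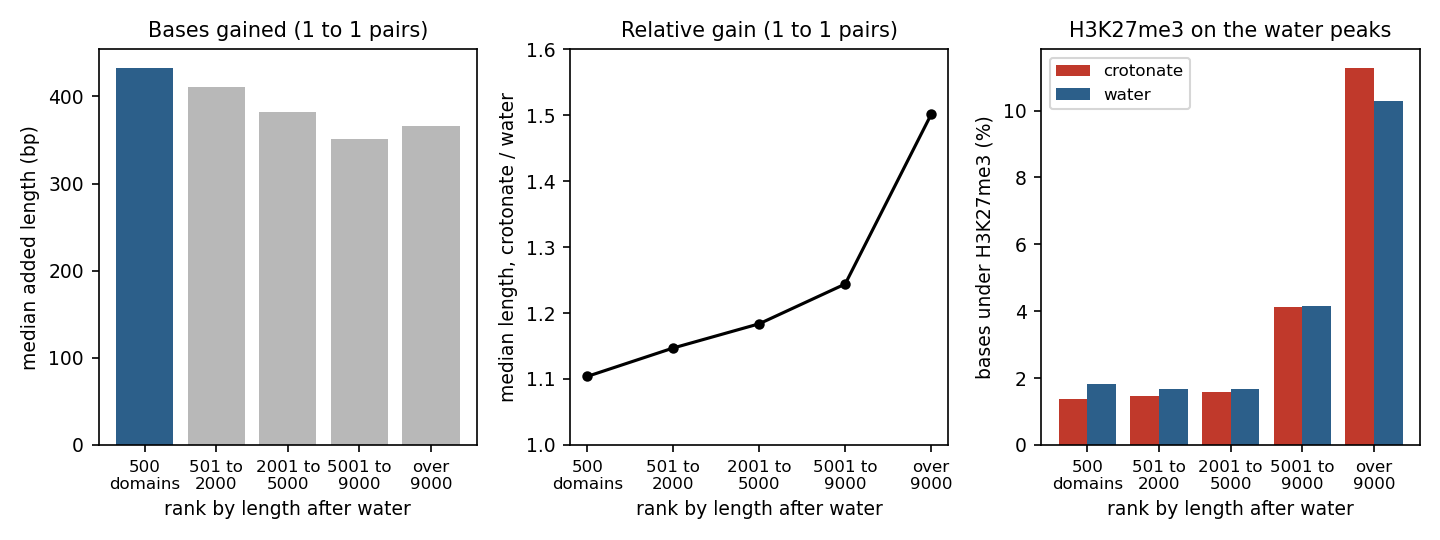
Water H3K4me3 peaks by rank of length. Left, median bases gained after crotonate in 1 to 1 pairs (432.5 bp in the domains, 351 to 411 bp in the other classes); middle, median ratio of crotonate to water length in the same pairs (1.1 to 1.5); right, share of bases under H3K27me3 after crotonate (red) and water (blue), which was 1.39% (crotonate) and 1.81% (water) in the domains and 11.3% (crotonate) and 10.3% (water) in the 4221 shortest peaks.

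The 15 with H3K27me3 in both groups included regulators of development. En2, a homeobox gene of the midbrain and hindbrain, Igf2bp1, an RNA-binding protein gene of fetal tissue, and Sp8, a zinc finger gene of forebrain patterning, were covered over their whole 4355, 4526 and 3968 bp in both groups. Bcor, a subunit gene of a Polycomb repressive complex, had 3878 bp covered after crotonate and 3808 bp after water. Coverage was less after crotonate at Bcl11a, with 4582 bp after crotonate and 5039 bp after water of its 6260 bp. It was also less at Trim71, a let-7 target gene of early embryos, with 3519 bp after crotonate and 4633 bp after water, and at Nr2f1, with 1159 bp after crotonate and 2036 bp after water. The rest, Igf1r, Egr2, Pcdh17, Gsx1, Cux1, Bahd1, Tshz3 and Dmrta2, had 173 to 757 bp covered after crotonate and 427 to 845 bp after water. Over the 15, coverage was greater after crotonate at 5, equal at 3 and greater after water at 7.

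H3K27me3 was called after water only at 5 domains, 1.0% (background 0.719%), and after crotonate only at 0 of 500, which allows a share of up to 0.60% by a limit of 3 counts (background 1.39%). The 5 included Mycn, a proto-oncogene of progenitors, with 2048 bp covered after water, Pcdh10, a protocadherin gene, with 1490 bp, Mdga1 with 1033 bp and Nfatc1 with 573 bp. Their H3K4me3 domains were all longer after crotonate. Mycn had 4794 bp after crotonate and 4270 bp after water. Pcdh10 had 7339 bp after crotonate, in a peak that held 2 water peaks, and 6033 bp after water. An estimated lower depth of the H3K27me3 library after crotonate moves the same way, and its part in these 5 was not tested.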

How the data were processed

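CUT&Tag peak lists for H3K4me3 and H3K27me3 in 2 treatments, 1 library each, were used as deposited. Per the submitters' processing notes, MACS2 2.2.7.1 was used with Bowtie2 2.4.1, Picard 2.22.0 and SAMtools 1.10, on GRCm38, with settings not given in the sources used here. Per the file headers, each list gives 1-based start and end, length and summit, and the authors' caller wrote pileup at the summit (a signal scaled per library), −log10 of p and q, and fold enrichment, a linear ratio. Depth was estimated from the deposited pileup, whose values were whole multiples of 1 step per library (100% within 0.006), and from the lowest background, on the assumption that the shortest peak is as long as a fragment.

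Peaks were ranked by length, and a counterpart was the longest crotonate peak that overlapped by at least 1 bp. The code (Python 3.11.15, numpy 2.4.6, pandas 2.3.3, scipy 1.17.1, matplotlib 3.10.9) was tested on simulated intervals, and bedtools 2.31.1 gave the same 3 overlap counts. RefSeq tables of GRCm38.p6 gave gene spans (no strand), start sites (those on chromosome 18 were not used here) and sequences; a gene was at a domain when either end lay within 2 kb, which includes 3′ ends and can take in a neighbour. The members and lists were chosen with earlier results of these data known. Named genes were those of the 30 longest domains, the 10 largest and 10 smallest length ratios, the 10 lowest crotonate ranks, the 10 with most H3K27me3 and all with it in 1 group, the 5 either side of the limit, list genes at a domain, and Sox2, Nes, Pax6, Actb and Gapdh. Alternatives changed the overlap, window, list length, fold threshold, merging and number of domains. 1 list pattern, for clustered histone genes, matched no symbol of the table and gave no count. Some items that these rules name are not reported here.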

Additional observations from a re-analysis of the deposited data

How the results depend on the processing

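Of 24 alternatives, 19 stayed inside the counting interval of the value given above. The other 5 moved it. With 50% reciprocal overlap required, 98.2% of the domains had a counterpart. The median length ratio was 1.302 when the 500 longest crotonate peaks were the starting set and 1.104 in 1 to 1 pairs. With peaks merged across gaps of up to 1 kb, 60.2% of the 500 longest merged water regions overlapped the 500 longest merged crotonate regions. Those water regions held 368 of the domains. With a start site required inside, 76.6% of the domains lay at a gene. The alternatives on crotonate peaks as the starting set, 1 to 1 pairs, start sites and the H3K27me3 list after crotonate were chosen after seeing the data. The limit at 500 mattered little: with 250 and 1000 domains, 65.6% and 69.1% were among as many of the longest crotonate peaks, and the median ratio was 1.12 and 1.136. No alternative matched the depth of the libraries, on which peak length depends, and a peak missing from a list can lie just under its threshold. No paired analysis was possible because each group has 1 library per mark.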
